A study of Mus musculus with 30 samples.

Results

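The rows followed here are the families of mouse endogenous retrovirus K (ERVK) type that go by the names IAP, ETn, MMETn, MMERVK, MYSERV, RodERV and ERVB, as measured in sperm RNA. Members were the rows of the 2 sperm tables whose name begins with one of these stems; the rule uses the name and no measured value. There were 55 of them among 16367 distinct rows, with 48 of 3082 rows in the table for 46 days, 52 of 16242 rows in the table for 24 h and 45 in both. Of the 55, 25 were IAP, 17 ERVB, 5 MMERVK, 4 ETn or MMETn, 3 MYSERV and 1 RodERV rows. A row was classed as internal when its name ends in -int or _I, and as LTR otherwise. This gave 26 internal and 22 LTR rows at 46 days, and 27 and 25 at 24 h. The tables give no repeat class, so whether each family is an ERVK by annotation was not checked.

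An endogenous retrovirus is a retroviral provirus that entered the germline and is inherited with the genome. Its internal region carries gag and pol, and the long terminal repeat (LTR) at each end holds the promoter and the polyadenylation signal, and recombination between both LTRs of a provirus leaves a solitary LTR behind. IAP (intracisternal A-type particle) and ETn (early transposon) elements are the ERVK groups best known for new insertions in mice, and they are silenced by the KRAB zinc finger, TRIM28 and SETDB1 pathway, by DNA methylation and, in male germ cells, by piRNAs. Mature sperm do not transcribe, so RNA found in them was made in earlier germ cells or taken up afterwards.

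All sperm came from C57Bl/6J males that were 3 months old when injections began. They received 10 µg/kg tesaglitazar, which activates both PPARα and PPARγ, by intraperitoneal injection (Tesa-inj), or the vehicle, DMSO in saline (Vehicle-inj). Injections were given 2 times per week for 4 weeks. Sperm was taken from the cauda epididymis by swim-up, followed by lysis of somatic cells. This was done either 46 days after the last injection (7 Tesa-inj and 7 Vehicle-inj libraries, total RNA depleted of rRNA) or 24 h after it (4 and 4 libraries, polyadenylated RNA). The first interval lies beyond a cycle of spermatogenesis and the second does not, so the pair of comparisons asks whether sperm RNA differed long after the exposure and soon after it. Time after injection, age at collection, kind of library and sequencing instrument differ together. Their parts in any difference between the tables cannot be told apart.

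Libraries held 4538102 to 13513816 counts at 46 days and 15337589 to 27709990 at 24 h, but only 633 to 34438 and 7681 to 27462 of these fell on the ERVK rows. The TMM factors, which scale the libraries to each other, ran from 0.0981 (library KG8-02, Tesa-inj) to 8.15 (KG8-14, Vehicle-inj) at 46 days and from 0.771 to 1.57 at 24 h. Library KG8-12 (Tesa-inj) held the highest level of IAPEz-int and IAPLTR1_Mm at 46 days, and KG8-02 had the fewest ERVK counts although its total lay above the median. Named rows are given also without both libraries where this moved the log2 fold change by more than 1.5 times. Beside these stand the values without KG8-01 (Tesa-inj) alone, which moved the other way. Of the marker lists for sperm, leukocytes, epididymal epithelium, and smooth muscle and stroma, 14 of 15 sperm markers were in the table for 46 days and none of the 14, 18 and 7 others. That table came reduced to 3082 rows, against 16242 at 24 h, so a marker missing from it is not shown to be absent from the sperm. At 24 h all 15 sperm markers were listed, with summed levels of 4012 to 12930 CPM (counts scaled to library size and TMM factor), but so were 14 of 14 leukocyte markers (1229 to 2606 CPM, of which Cd52 alone held 81.1% to 92.5% and the 13 others 162 to 331 CPM), 12 of 18 epididymal markers (1004 to 2746 CPM) and 7 of 7 markers of smooth muscle and stroma (45.1 to 183 CPM). Cd52 is known also as a product of the epididymis that coats sperm. None of these 4 lists held a gene that passed the threshold between the groups. In bulk RNA fewer cells of a kind and less RNA per cell cannot be told apart. The labels do not say that each library is a separate male, so p-values measure the spread between libraries only.

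In total sperm RNA at 46 days, ERVK rows took between 0.00723% and 0.358% of all counts and internal sequence made up most of it. IAPEz-int, the internal region of the youngest and most active IAP group, held 14.4% to 22.9% of the ERVK counts and ranked 64 of 584 transposable element rows by mean CPM. MMERVK10C-int, the internal region of a family that TRIM28 is known to restrain, followed with 10.9% to 20.1%. Next came IAPEY3-int with 3.72% to 7.26%, IAPEy-int with 3.05% to 5.57% and IAPLTR3-int with 3.56% to 5.31%, the first and second belonging to the IAPE group, IAPs that carry an envelope gene. Family lengths are not in the files, so this order is one of read counts and not of copies per length. The share of ERVK counts on internal rows was nearly the same in every library, from 83.1% to 85.6%, although the counts behind it differed by library from 633 to 34438. It was 84.2% ± 0.763 in Tesa-inj and 84.7% ± 0.523 in Vehicle-inj (SD, n = 7 each), and the groups overlapped.

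**Figure D1:**
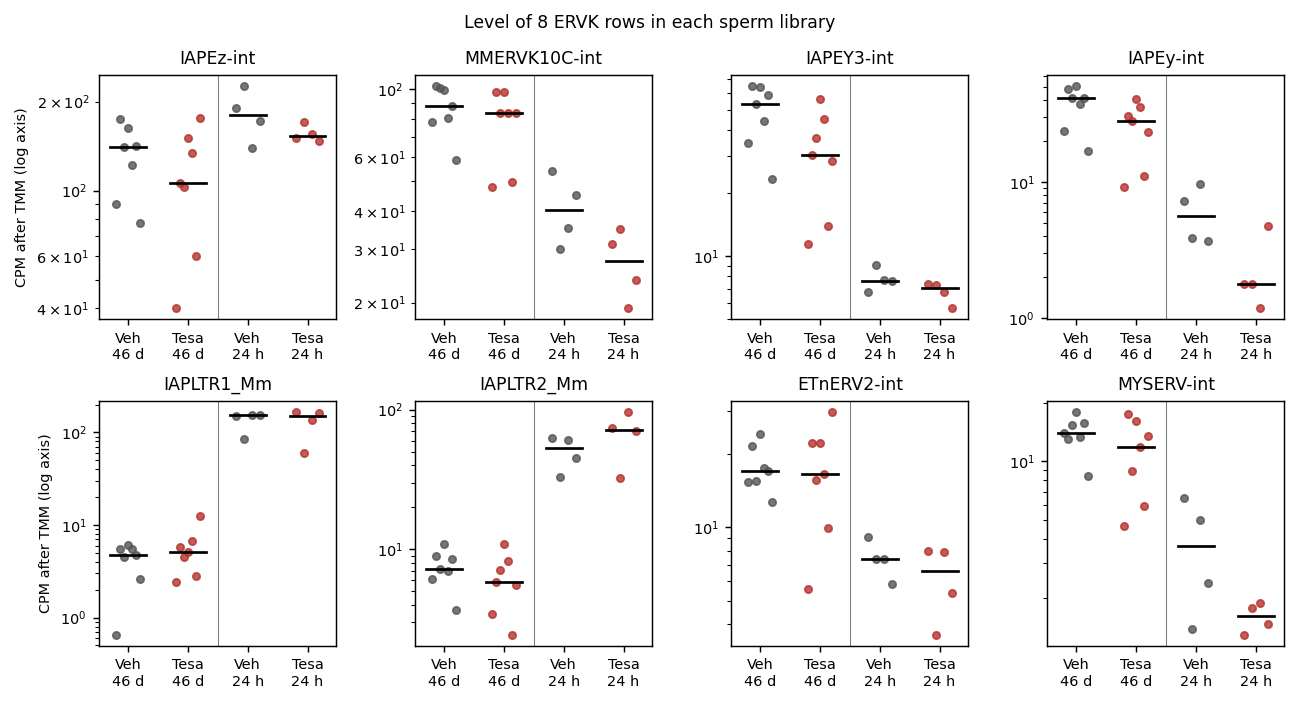
Level of 8 ERVK rows in each sperm library, in CPM after TMM on a log axis; each point is a library, grey for Vehicle-inj and red for Tesa-inj, black bars mark group medians, and a vertical line parts 46 days (7 and 7 libraries, total RNA) from 24 h (4 and 4 libraries, polyadenylated RNA), which were scaled separately. The groups overlap in each of the 8 rows at both times, while IAPLTR1_Mm lies between 0.656 and 12.6 CPM in the 46-day libraries and between 60.1 and 166 CPM in the 24 h libraries.

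Tesa-inj was compared with Vehicle-inj at 46 days first. No ERVK row passed the threshold: 0 of the 47 rows tested had an adjusted p under 0.05 by the quasi-likelihood test of edgeR, adjusted by Benjamini-Hochberg over all 2866 rows tested, where the share called among all rows was 0%. The smallest adjusted p among the members was 0.970. At an unadjusted p under 0.05 the count was also 0 of 47, against 1.05% of all rows in the lower direction, 4.26% in the higher direction and 2.12% of the 567 transposable element rows in the lower direction. The ranges of Tesa-inj and Vehicle-inj overlapped in all 47 rows, as in nearly all of the table, where 0% of rows were lower and 0.0349% higher without overlap. The exact test of edgeR called 0 members and 13 of all 2866 rows, while DESeq2 and limma voom called 0 members and 0 rows.

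IAPEz-int ran from 40.0 to 176 CPM with a median of 106 CPM in Tesa-inj, and from 77.5 to 174 CPM with a median of 140 CPM in Vehicle-inj. The Tesa-inj libraries held both the lowest level, in KG8-01, and the highest, in KG8-12. The log2 fold change of Tesa-inj over Vehicle-inj was -0.24 (SE 0.29), with an adjusted p of 0.999 by edgeR's quasi-likelihood test. Without KG8-12 it was -0.42 (SE 0.30), and without KG8-02 as well -0.45 (SE 0.33), but without KG8-01 alone it was -0.10. MMERVK10C-int was the most even of the abundant rows, from 48.0 to 97.9 CPM in Tesa-inj and from 58.8 to 103 CPM in Vehicle-inj, with medians of 83.5 and 88.5 CPM. Its log2 fold change was -0.17 (SE 0.20), or -0.30 (SE 0.22) without KG8-12 and KG8-02 and -0.09 without KG8-01.

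The rows with the smallest unadjusted p at 46 days were all lower in mean level in Tesa-inj. They were ERVB5_2-LTR_MM (log2 fold change -0.63, SE 0.32, unadjusted p = 0.0653), IAPEY3-int (-0.63, SE 0.33, unadjusted p = 0.0754), IAPLTR4 (-0.48, SE 0.25, unadjusted p = 0.0779), IAP1-MM_LTR (-0.64, SE 0.35, unadjusted p = 0.0878) and MMERVK10D3_I-int (-0.59, SE 0.34, unadjusted p = 0.100). The adjusted p of edgeR's quasi-likelihood test was 0.970 or more for all 5. IAPEY3-int had a lowest, median and highest level of 11.5, 30.3 and 56.1 CPM in Tesa-inj and of 23.3, 53.4 and 65.1 CPM in Vehicle-inj. Its lowest libraries were KG8-01, KG8-11 and KG8-14, the last of them Vehicle-inj, so no cut in level parted the groups. IAPEy-int had the same order of libraries at the bottom, with 9.14, 27.9 and 40.6 CPM in Tesa-inj against 16.8, 41.0 and 50.7 CPM in Vehicle-inj and a log2 fold change of -0.56 (SE 0.33). ERVB5_2-LTR_MM rested on few reads, from 1 count in a library upwards, with a median of 1.73 CPM in Tesa-inj against 3.24 CPM in Vehicle-inj.

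The ETn group consists of MMETn-int and the ETnERV rows. ETn elements are non-autonomous and move with proteins supplied by related coding elements. MMETn-int ran from 6.69 to 24.9 CPM in Tesa-inj and from 12.4 to 23.3 CPM in Vehicle-inj, with medians of 17.1 and 18.2 CPM. The log2 fold changes were -0.21 (SE 0.26) for MMETn-int, -0.27 (SE 0.30) for ETnERV-int and -0.06 (SE 0.29) for ETnERV2-int, and all 4 rows of the group were at or above -0.39. These values depended on which Tesa-inj libraries were used. Without KG8-12 and KG8-02 they were -0.47 (SE 0.28), -0.52 (SE 0.34) and -0.40 (SE 0.30), beside a median of -0.52 over all members. Without KG8-01 alone they were -0.08, -0.13 and 0.10, beside a median of -0.20. MYSERV-int stood at -0.38 (SE 0.28) and RodERV21-int at -0.20 (SE 0.32). Without KG8-12 and KG8-02 they were at -0.62 (SE 0.30) and -0.46 (SE 0.37), and without KG8-01 at -0.24 and -0.05.

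Of the 14 IAP LTR rows tested at 46 days, 13 had a log2 fold change below 0. IAPLTR1_Mm, the LTR of the young IAP copies, had the highest log2 fold change of all members at 46 days, 0.35 (SE 0.42), and IAPLTR3 the lowest, -0.73 (SE 0.50). IAPLTR1_Mm ran from 2.45 to 12.6 CPM in Tesa-inj and from 0.656 to 6.06 CPM in Vehicle-inj, with medians of 5.10 and 4.72 CPM. The highest value was that of KG8-12, on 32 counts, and the lowest that of KG8-06 (Vehicle-inj), on 3 counts. Without KG8-12 the log2 fold change was -0.04 (SE 0.39), so that the direction rested on this library. Without KG8-02 as well it was -0.09 (SE 0.41), and without KG8-01 alone 0.49. IAPLTR1a_Mm was at -0.28 (SE 0.39), or -0.43 (SE 0.46) without KG8-12 and KG8-02 and -0.16 without KG8-01. IAPLTR2_Mm was at -0.28 (SE 0.32).

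As a set, 44 of the 47 members had a log2 fold change below 0 at 46 days, all 26 internal rows and 18 of 21 LTR rows. The rows above 0 were IAPLTR1_Mm, ERVB7_1-LTR_MM (0.06) and ERVB4_1C-LTR_Mm (0.05). The median log2 fold change was -0.35 over the members, -0.35 over internal rows and -0.37 over LTR rows. With each library left out in turn the median over the members ran from -0.53, without KG8-04, to -0.20, without KG8-01 or KG8-11, all 3 of them Tesa-inj, and without KG8-12 and KG8-02 together it was -0.52 with all 48 members then tested below 0. Other transposable elements leaned the same way: 487 of 520 were below 0, with a median of -0.25, against -0.03 over all rows. Rows of a library share its scaling, so these counts do not stand for separate observations. With TMM computed over the transposable elements alone, the median of the members was -0.02 and 24 of 47 were below 0, and with library totals alone it was -1.71 with all 47 below 0, beside -1.74 for all transposable elements and -1.09 for all rows. Library numbers 11 to 14 may form a batch, which no label states; libraries 1 to 10 alone gave a median of -0.30, with 42 of 44 members below 0 and 0 past the threshold.

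**Figure D2:**
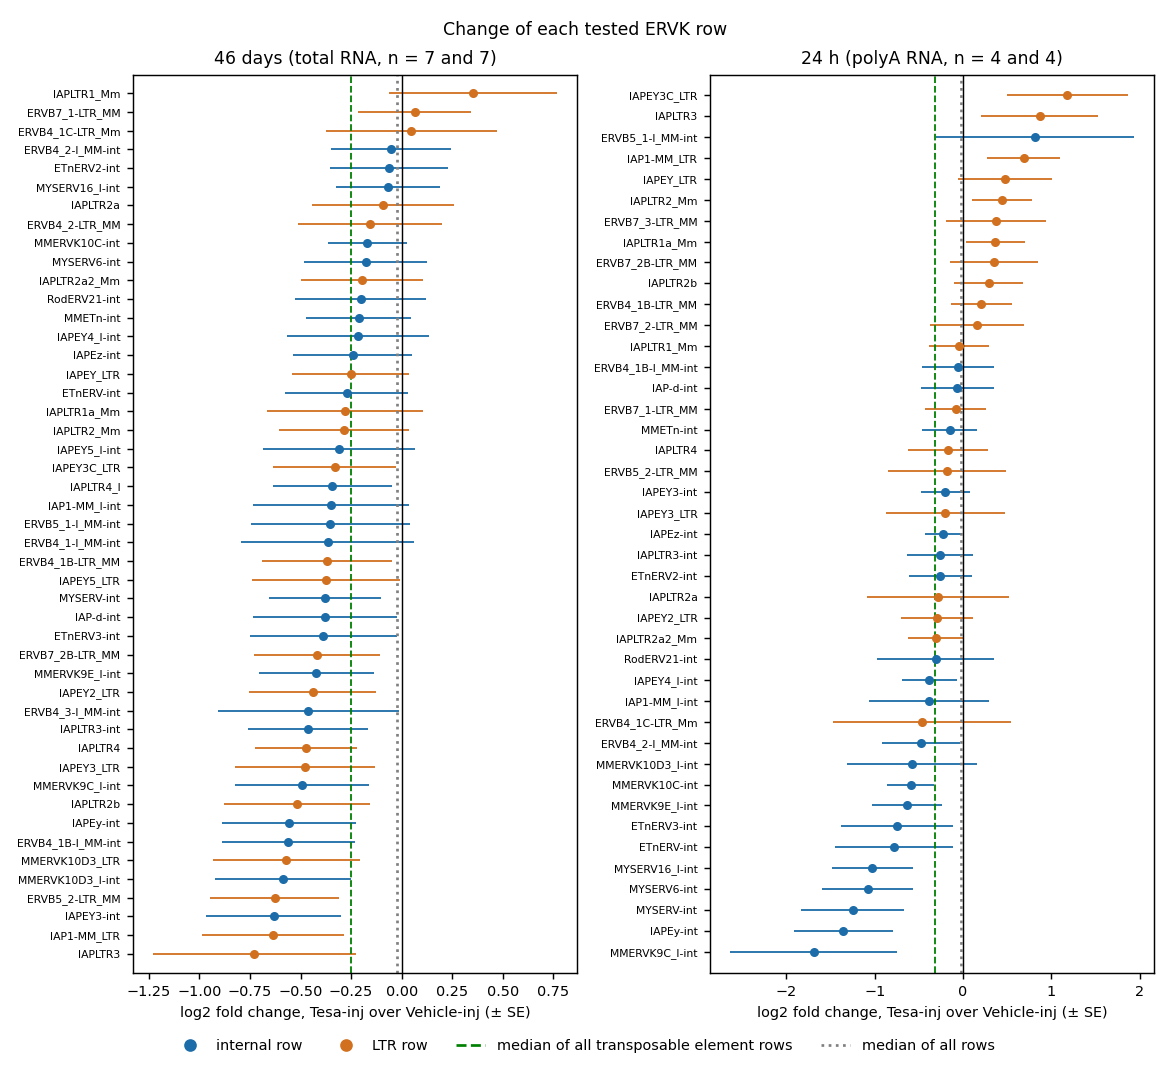
Log2 fold change of Tesa-inj over Vehicle-inj with its SE for each tested ERVK row, at 46 days (47 rows) and 24 h (42 rows), blue for internal and orange for LTR rows; the dashed green line is the median of all transposable element rows and the dotted grey line that of all rows. At 46 days both kinds of row are spread around -0.35, while at 24 h the internal rows have a median of -0.43 and the LTR rows one of 0.18.

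By share of counts rather than after TMM, ERVK rows took 0.00723% to 0.153% of all counts in Tesa-inj, with a median of 0.0288%, and 0.0307% to 0.358% in Vehicle-inj, with a median of 0.0846%. Library KG8-02, whose TMM factor was also the lowest, had the lowest share and the groups overlapped. Within transposable element counts the median was 0.403% in Tesa-inj and 0.834% in Vehicle-inj. No test was made of these shares, which move with the few abundant rows that take most counts of each library.

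At 24 h, 42 of the 52 members could be tested and again 0 passed an adjusted p of 0.05, with 0% called among all 13752 rows. The 10 left out had too few counts and reached at most 2.71 CPM in any library. At an unadjusted p under 0.05 by the same test, 2 of 42 members were lower and 0 higher, against 1.75% and 0.953% of all rows and 7.95% of the 541 transposable element rows in the lower direction. The groups were apart in 1 of 42 members, lower in Tesa-inj, where 1.95% of all rows were lower and 1.32% higher without overlap. The share of members lower at an unadjusted p under 0.05 lay between that of all rows and that of all transposable elements, but rests on 2 rows.

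IAPEy-int had the smallest p. It held 1.79, 1.77, 1.18 and 4.77 CPM in the Tesa-inj libraries and 7.27, 3.88, 9.65 and 3.71 CPM in the Vehicle-inj libraries. Library ai_7 (Tesa-inj) lay above 2 of the 4 Vehicle-inj libraries, and the others below them all. The log2 fold change was -1.35 (SE 0.56, unadjusted p = 0.0360), and the adjusted p of edgeR's quasi-likelihood test was 1. The libraries held 24 to 208 counts of this row.

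All 3 MYSERV rows had a log2 fold change below -1. MYSERV16_I-int held 4.81, 3.16, 2.07 and 5.92 CPM in Tesa-inj and 9.53, 3.96, 7.62 and 11.5 CPM in Vehicle-inj, for a log2 fold change of -1.03 (SE 0.46, unadjusted p = 0.0478). MYSERV-int held 1.29, 1.77, 1.87 and 1.47 CPM in Tesa-inj and 6.52, 1.38, 5.00 and 2.39 CPM in Vehicle-inj, where ai_4 (Vehicle-inj) lay within the Tesa-inj range, and its log2 fold change was -1.25 (SE 0.58). MYSERV6-int was at -1.08 (SE 0.52).

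Among the MMERVK rows, MMERVK10C-int held 31.1, 34.9, 19.2 and 23.8 CPM in Tesa-inj and 53.8, 30.0, 35.2 and 45.1 CPM in Vehicle-inj. The log2 fold change was -0.59 (SE 0.27, unadjusted p = 0.0514), and the ranges overlapped through ai_4, the lowest of the Vehicle-inj libraries. MMERVK9C_I-int had the lowest log2 fold change of the members, -1.69 (SE 0.94, unadjusted p = 0.103). It was the member whose groups did not overlap, with 2.96, 2.81, 0 and 2.98 CPM in Tesa-inj and 12.0, 4.45, 6.40 and 5.57 CPM in Vehicle-inj, the 0 in ai_5 being 0 counts. In this row the groups overlapped when libraries were scaled by their totals alone.

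IAPEz-int was again the most abundant member at 24 h, ranking 28 of 632 transposable element rows. It held 151, 170, 155 and 147 CPM in Tesa-inj and 190, 226, 140 and 172 CPM in Vehicle-inj, a narrow spread in which the groups overlapped, with a log2 fold change of -0.22 (SE 0.21). MMETn-int (-0.15, SE 0.32), ETnERV2-int (-0.26, SE 0.35) and IAP-d-int (-0.07, SE 0.42) differed by less than their SE. ETnERV-int was the least even of the ETn rows, from 0.925 to 10.4 CPM in Tesa-inj and from 6.02 to 16.9 CPM in Vehicle-inj, with a log2 fold change of -0.78 (SE 0.67). RodERV21-int, at most 3.12 CPM, was at -0.31 (SE 0.66).

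The LTR rows at 24 h lay on both sides of 0. IAPLTR2_Mm held 74.3, 32.5, 96.1 and 69.7 CPM in Tesa-inj and 62.8, 33.1, 60.1 and 45.1 CPM in Vehicle-inj, with a log2 fold change of 0.44 (SE 0.34). IAPLTR1a_Mm was at 0.37 (SE 0.34) and IAPLTR1_Mm at -0.05 (SE 0.34). The highest log2 fold change was that of IAPEY3C_LTR, 1.18 (SE 0.69, unadjusted p = 0.115), with 2.84, 1.86, 4.39 and 2.94 CPM in Tesa-inj and 0.334, 0.809, 2.23 and 1.86 CPM in Vehicle-inj, on 4 to 128 counts per library. None of these rows passed the test.

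Over the 42 members at 24 h, 21 of 22 internal rows were below 0 with a median log2 fold change of -0.43, while 9 of 20 LTR rows were below 0 with a median of 0.18. The median over both kinds was -0.21, beside -0.32 for all transposable elements and -0.02 for all rows. Among the other transposable elements, the 56 rows ending in -int had a median of -0.22 and the 443 further rows one of -0.35. By family the medians were -0.26 for the 7 internal and 0.29 for the 13 LTR rows of the IAP group, -0.50 for the 4 ETn and MMETn rows, -0.61 for the 4 MMERVK rows, -1.08 for the 3 MYSERV rows and 0.05 for the 10 ERVB rows. The gap between the internal and LTR medians was -0.61 and was below 0 in all 17 settings run. Rescaling a library moves both kinds of row alike, so settings that changed only the scaling could hardly move this gap. With each library left out it ran from -0.95 without ai_3 to -0.26 without ai_4. Rows counted in the same libraries are not separate observations, and the gap was not tested. The LTR median itself was -0.05 without ai_4 and -0.08 with no filter on low counts. At 46 days the same gap was 0.02 and changed sign with the setting, from -0.08 to 0.05.

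The effect at 46 days was set against that at 24 h in one edgeR model over all 22 libraries. Of the 40 members tested in both tables, 0 differed at an adjusted p under 0.05, with 0% of all 2680 rows called, and 2 differed at an unadjusted p under 0.05, beside 8.17% of all rows. Both were LTR rows with a log2 fold change below 0 at 46 days and above 0 at 24 h, IAPEY3C_LTR (-0.33 and 1.18) and IAP1-MM_LTR (-0.64 and 0.69). The adjusted p of edgeR's quasi-likelihood test was 0.525 for each.

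Internal and LTR rows of one family are counted in the same library, so their ratio there does not depend on how libraries are scaled, while solitary LTRs add to the LTR row alone. It was taken as log2 of internal over LTR counts, each plus 0.5, which draws the ratio toward 1 where counts are few. Pairs were used when both parts passed the filter, which gave 10 pairs at 46 days and 6 at 24 h. Each row was joined to the LTR row of the same stem ignoring case, and IAPEz-int to IAPLTR1_Mm and IAPLTR1a_Mm together. Salmon divides reads that match several families by estimate, so a ratio may carry reads moved between near-identical copies.

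IAPEz-int exceeded its LTRs by 9.10 to 33.1 times in counts at 46 days, with a median of 13.9 times. The mean log2 ratio was 3.57 ± 0.315 in Tesa-inj and 4.05 ± 0.477 in Vehicle-inj (SD, n = 7 each). The difference was -0.48 with p = 0.0315 by a two-sided exact permutation test and 0.157 after Benjamini-Hochberg adjustment over the 10 pairs. KG8-06 (Vehicle-inj) was far above the rest at 5.05, and without it the difference was -0.31 with an exact permutation p of 0.0629. For IAPEy-int over IAPEY_LTR the mean log2 ratio was 1.78 ± 0.220 for Tesa-inj libraries against 2.11 ± 0.223 for Vehicle-inj ones, and the difference of -0.34 had an exact permutation p of 0.0192 and an adjusted p of 0.157. Leaving out each library in turn kept it between -0.40 and -0.28, with exact permutation p between 0.00524 and 0.0373. With 5 counts added to each part in place of 0.5 the adjusted p of this pair came under 0.05 (difference -0.44, exact permutation p = 0.00466). IAPEY3-int over IAPEY3_LTR differed by -0.21 (exact permutation p = 0.0880), and by -0.41 with 5 counts added (exact permutation p = 0.0262). Added counts draw a ratio toward 1 most where counts are few. Tesa-inj libraries held fewer ERVK counts, with a median of 2912 against 8018 in Vehicle-inj. The setting with 5 counts added therefore cannot decide whether these ratios differed. Of the 10 pairs, 5 were lower and 5 higher in Tesa-inj, and 0 passed the adjusted threshold in the settings with 0.5 or 1 count added.

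At 24 h the ratio for IAPEy-int was again lower in Tesa-inj and by more. The log2 ratios were -2.12, -0.78, -2.37 and -0.96 in Tesa-inj and 1.18, 1.11, 0.22 and -0.63 in Vehicle-inj, so that every Tesa-inj library lay below every Vehicle-inj library. The difference was -2.03 with an exact permutation p of 0.0286, the smallest that 4 against 4 libraries can give, and 0.171 after adjustment over the 6 pairs. No pair passed, but 1 pair alone at this smallest p cannot come under 0.05 after the adjustment. IAP1-MM_I-int (-1.36) and IAPLTR3-int (-1.29) had an exact permutation p of 0.0857 each. The IAPEz-int pair was near even, with mean log2 ratios of 0.18 ± 0.729 for Tesa-inj and 0.32 ± 0.689 for Vehicle-inj (SD, n = 4 each).

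**Figure D3:**
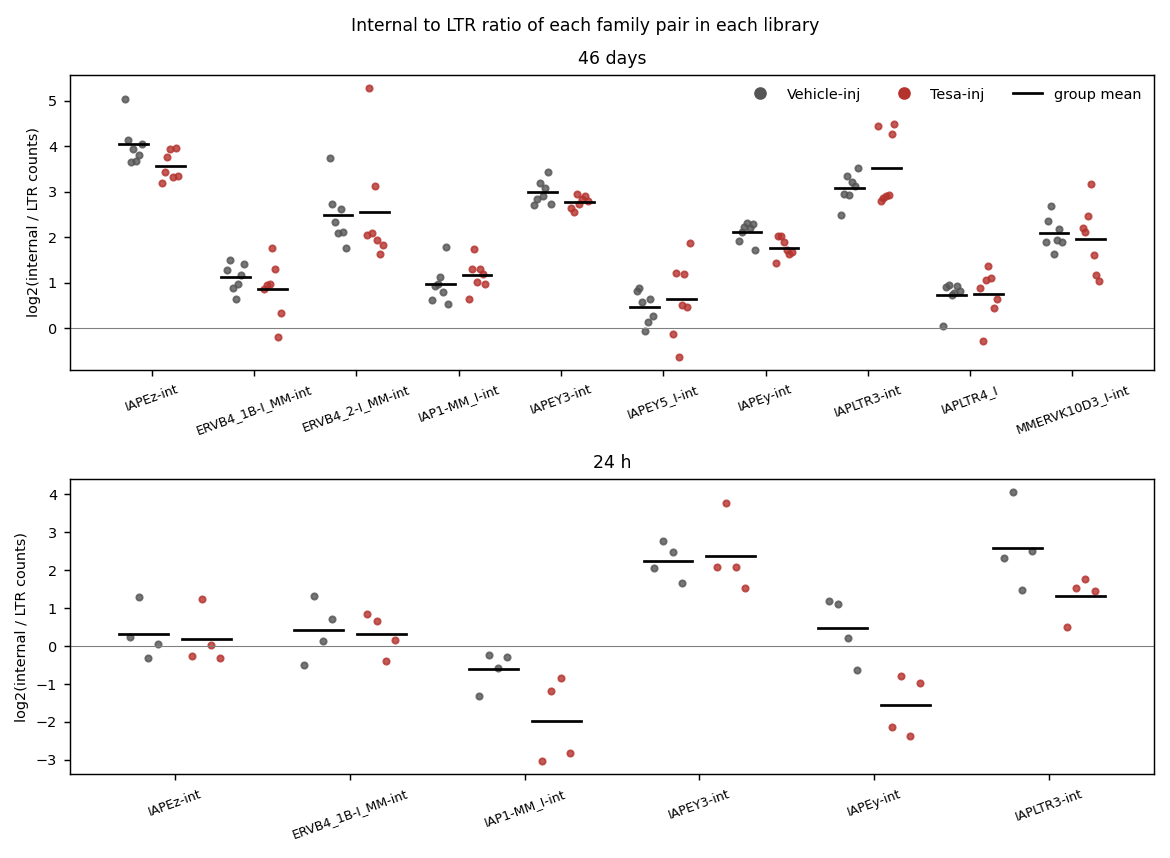
Log2 ratio of internal to LTR counts for each family pair, named by its internal row, in each library at 46 days (10 pairs) and 24 h (6 pairs); grey points are Vehicle-inj, red points Tesa-inj, and black bars group means. IAPEy-int is lower on average in Tesa-inj at both times, by 0.34 and by 2.03, and IAPEz-int has means of 3.57 and 4.05 at 46 days and of 0.18 and 0.32 at 24 h.

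The make-up of the ERVK counts differed between the tables more than between the groups. It is given as the share of the counts on the 45 rows present in both, which needs no scaling between tables. This is a description, since time, age at collection, kind of library and sequencing instrument differ together. IAPLTR1_Mm held a median of 0.598% of ERVK counts in the 7 Vehicle-inj libraries of total RNA at 46 days and of 22.5% in the 4 Vehicle-inj libraries of polyadenylated RNA at 24 h. IAPLTR2_Mm held 1.06% and 7.86%, IAPLTR1a_Mm 0.501% and 1.52%, and ERVB7_1-LTR_MM 0.483% and 1.85%. In these 4 LTR rows every one of the 8 polyadenylated libraries lay above every one of the 14 total RNA libraries, and in no internal row was this so.

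The reverse held for 14 of 24 internal rows and 1 of 21 LTR rows, IAPEY3_LTR. The shares of a library add up to a fixed total. Higher shares of IAPLTR1_Mm and IAPLTR2_Mm therefore lower those of the other rows by themselves. How much of the lower internal shares this makes up was not tested. Rows that part the tables were not counted among other transposable elements or all rows, so these counts are not shown to be particular to ERVK rows. RodERV21-int held 2.62% at 46 days and 0.376% at 24 h, IAPEy-int 5.25% and 0.824%, IAPEY3-int 7.06% and 1.20%, IAPLTR3-int 4.88% and 1.20%, and MMERVK10C-int 12.2% and 6.26%. IAPEz-int was not among the rows with lower shares at 24 h, at 18.2% and 26.5%, with ranges that overlapped over all libraries. IAPEz-int counts were therefore 2.42 to 6.17 times those of IAPEY3-int in the libraries of total RNA and 18.1 to 28.0 times in the polyadenylated ones. The pair of rows for these ratios was picked once the values were known. The highest at 46 days was that of KG8-12, beside 4.32 or less in the other 13 libraries.

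**Figure D4:**
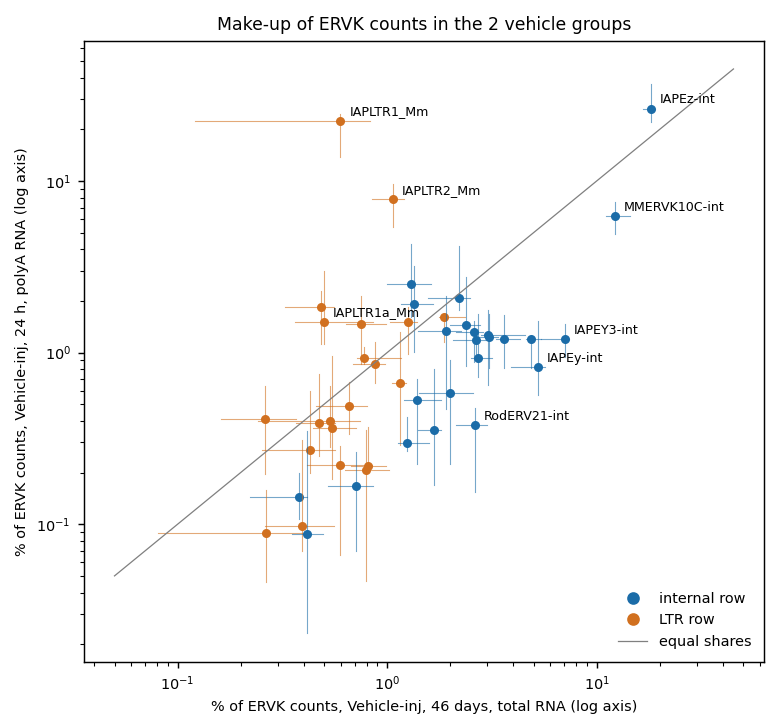
Share of ERVK counts held by each of the 45 rows found in both tables, for Vehicle-inj libraries, with total RNA at 46 days on the x axis and polyadenylated RNA at 24 h on the y axis, both in percent on log axes; points are medians, thin lines run from the lowest to the highest library, and the diagonal marks equal shares. IAPLTR1_Mm (0.598% and 22.5%) and IAPLTR2_Mm (1.06% and 7.86%) lie far above the diagonal, IAPEz-int near it, and most internal rows below it.

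Within the 24 h table the LTR share also varied by library. Internal rows held 44.8%, 67.3%, 44.7% and 42.9% of ERVK counts in Tesa-inj and 55.7%, 69.6%, 47.1% and 56.5% in Vehicle-inj. The highest were ai_3 (Tesa-inj) and ai_4 (Vehicle-inj), and the other 3 Tesa-inj libraries lay below every Vehicle-inj library. Libraries ai_3 and ai_4 libraries had the lowest IAPLTR1_Mm, 60.1 and 84.4 CPM against 137 to 166 CPM in the other 6, the lowest IAPLTR2_Mm, 32.5 and 33.1 CPM against 45.1 to 96.1 CPM, and the highest IAP-d-int, 29.3 and 25.7 CPM against 9.01 to 15.2 CPM. They also had the lowest summed level of the 15 sperm markers, 5774 and 4012 CPM against 7547 to 12930 CPM, and of Cd52, 1071 and 1029 CPM against 1378 to 2382 CPM, while the 13 other leukocyte markers summed to 248 and 199.5 CPM, within the 162 to 331 CPM of the other 6. The 7 markers of smooth muscle and stroma summed to 113 and 183 CPM against 45.1 to 122 CPM, and the 12 epididymal ones to 1184 and 1434 CPM against 1004 to 2746 CPM. Whether these have a part in the LTR levels was not tested.

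**Figure D5:**
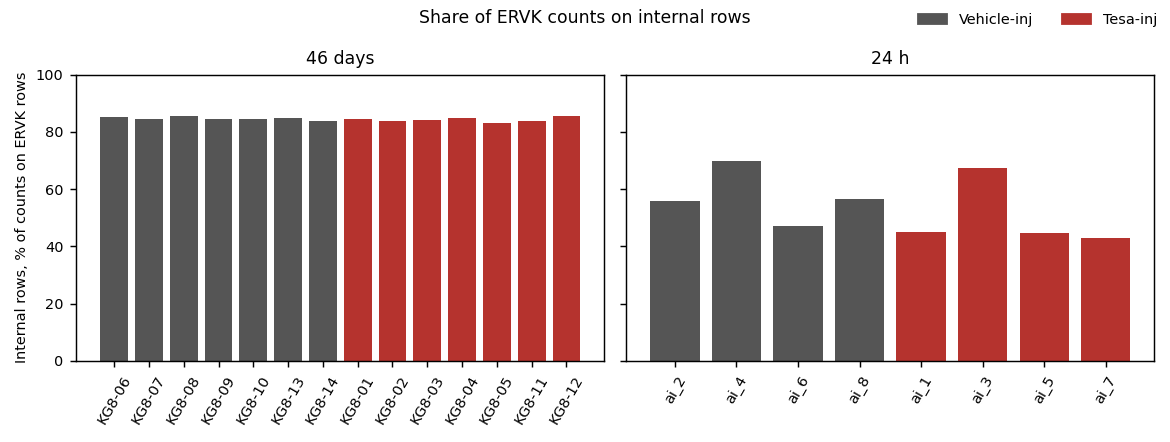
Share of ERVK counts on internal rows in each library, in percent, at 46 days and 24 h; bars are single libraries, grey for Vehicle-inj and red for Tesa-inj. The 14 libraries at 46 days lie between 83.1% and 85.6%, and the 8 at 24 h between 42.9% and 69.6%, with ai_3 and ai_4 highest.

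A list of 69 symbols was read, mainly of host genes known to silence or restrict ERVK elements. It holds Tasor and Hells also under their older names Fam208a and Lsh. A group of 5, Tet1, Tet2, Tet3, Nxf1 and Xpo1, was listed as other genes, not as silencers or restriction factors. At 46 days only 7 were in the table and tested, with 0 past the threshold and 4 below 0. They included Morc2a, which works with the HUSH silencing complex (log2 fold change -0.21, SE 0.23), Fam208a, the HUSH subunit (0.39, SE 0.33), and Gtsf1, a piRNA pathway protein (-0.06, SE 0.57). At 24 h 46 were tested and 0 passed, 25 being below 0, with a median of -0.03 beside -0.02 over all rows. Trim28, the corepressor that KRAB zinc finger proteins recruit, averaged 26.2 CPM in Tesa-inj and 25.2 CPM in Vehicle-inj (log2 fold change 0.06, SE 0.20). At an unadjusted p under 0.05, 2 of the 46 were lower and 1 higher, where 1.75% and 0.953% of all rows were: Apobec3, a cytidine deaminase that restricts retroviruses (-0.82, SE 0.33), Tet2, which oxidises methylated cytosine (-1.97, SE 0.48, unadjusted p = 0.00206), and Trex1, a DNA exonuclease (1.30, SE 0.57). The adjusted p of edgeR's quasi-likelihood test was 1 for each of the 3.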

How the data were processed

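Per the labels and the paper's methods, the authors trimmed the reads with Trim Galore and quantified them with Salmon 0.11.2 against transcripts and the copies of each repeat family joined into one sequence. What they deposited are estimated counts per gene or repeat family, not normalized, in a table for 46 days (14 libraries) and one for 24 h (8 libraries), each already reduced to its more abundant rows. Whether a library stands for one male is not stated. A legend of the study counts fewer Tesa-inj libraries for 46 days than the 7 deposited and names none as left out; all were used and each was left out in turn. The serum small RNA table has no repeat rows and was not used here.

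Estimated counts were rounded. Rows entered the test when 6 or more libraries (46 days) or 4 or more (24 h) had over 20 counts. The test was edgeR's quasi-likelihood test (version 4.0.16, R 4.3.3), with TMM over all rows and Benjamini-Hochberg adjustment over all rows tested, at 0.05. CPM are counts scaled to library size and TMM factor. Ratios of internal to LTR counts were compared by exact permutation, two-sided. The scripts were tested on simulated data. Members, lists and tests were chosen with earlier results of these data known. Rows named were 11 fixed families, the 5 of smallest p, the 5 most abundant and the highest and lowest fold change in each comparison; others were named after their values were seen. Alternatives were DESeq2 1.42.0 and its size factors, library totals, TMM over transposable elements, the exact test, limma 3.58.1 voom, transposable elements fitted alone, no filter and each library left out. At 46 days they also included libraries 1 to 10 alone, a term for libraries 11 to 14, and KG8-12 and KG8-02 left out together. No consensus sequence of these families was at hand, so none is shown. Family totals limit precision to the ERVK counts of each library, 633 at the least.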

Additional observations from a re-analysis of the deposited data

Results flagged for a closer look

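In 9 of the 112 groups of libraries examined, 1 library lay apart from its group by Dixon's criterion, where chance gives about 1 in 20. At 46 days these were IAPLTR1_Mm in Tesa-inj (12.6 CPM in KG8-12, with the nearest library at 6.68 CPM), the ERVK share of all counts in Tesa-inj (0.153% in KG8-11, nearest 0.062%), and the log2 internal to LTR ratios of ERVB4_2-I_MM-int in Tesa-inj (5.29 in KG8-02, nearest 3.12), of IAPEz-int in Vehicle-inj (5.05 in KG8-06, nearest 4.14) and of IAPLTR4_I in Vehicle-inj (0.0481 in KG8-06, nearest 0.726). KG8-02 and KG8-06 were among the libraries with fewest ERVK counts, 633 and 2525.

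At 24 h they were IAPEy-int in Tesa-inj (4.77 CPM in ai_7, nearest 1.79 CPM), MMERVK9C_I-int in Tesa-inj (0 CPM in ai_5, nearest 2.81 CPM), the internal share of ERVK counts in Tesa-inj (67.3% in ai_3, nearest 44.8%) and IAPLTR1_Mm in Vehicle-inj (84.4 CPM in ai_4, nearest 152 CPM). No member differed between the times past an adjusted p of 0.05 by edgeR's quasi-likelihood test.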

How the results depend on the processing

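No member passed the adjusted threshold in the 26 settings run at 46 days, the 17 at 24 h or the 4 of the difference between times. Among all rows tested at 46 days, 13 of 2866 passed with the exact test and 1 of 567 with transposable elements fitted alone. No row passed in any other setting. No paired analysis was possible because the Tesa-inj and Vehicle-inj libraries of a table share no replicate numbers. The number of members with an unadjusted p under 0.05 was 0 at 46 days and 2 at 24 h, where 5.30% and 2.71% of all rows and 3.00% and 8.13% of transposable elements had one. With library totals it was 13 and 0 (7.19% and 1.10% of all rows, 26.1% and 0.185% of transposable elements). With TMM over transposable elements it was 1 and 1 (8.69% and 6.69%, 2.82% and 1.11%), with voom 5 and 6 (5.76% and 7.43%, 12.5% and 13.1%), and with transposable elements fitted alone 1 and 6 (3.88% and 12.0% of these). It was 4 with KG8-12 and KG8-02 left out (3.64%, 6.17%), and at 24 h 4 with DESeq2 (3.58%, 9.80%) and 1 with the exact test (2.68%, 7.02%). With each library left out it was 0 to 4 at both times.

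With library totals the median log2 fold changes of members, internal and LTR rows were -1.71, -1.74 and -1.66 at 46 days, and at 24 h those of members and internal rows were 0.02 and -0.20. With TMM over transposable elements they were 0.12, -0.11 and 0.51 at 24 h. With each library left out the internal median at 24 h ran from -0.68 to -0.30, the lowest without ai_3.

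Directions of named rows turned mainly with the scaling. With TMM over transposable elements, at 46 days IAPEz-int and ETnERV-int were at 0.01, ETnERV2-int at 0.18, MMETn-int and RodERV21-int at 0.08, MMERVK10C-int at 0.17, IAPLTR1a_Mm at 0.05 and IAPLTR2_Mm at 0.04, and at 24 h IAPEz-int was at 0.11, ETnERV2-int at 0.10, MMETn-int at 0.19, RodERV21-int at 0.02, IAPLTR1_Mm at 0.28 and IAP-d-int at 0.24. With library totals, IAPLTR1_Mm was at -1.20 at 46 days, and at 24 h IAPEz-int was at 0.02, MMETn-int at 0.03, and IAPLTR1_Mm and IAP-d-int at 0.18. With each library left out, ETnERV2-int ran from -0.30 to 0.10 and IAPLTR1_Mm from -0.04 to 0.50 at 46 days (-0.09 without KG8-12 and KG8-02), and at 24 h IAPLTR1_Mm ran from -0.20 to 0.19 and IAP-d-int from -0.56 to 0.26. The cause was not tested.

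With 5 counts added, 1 pair ratio passed at 46 days, that of IAPEy-int, while with 0.5 or 1 count none did. The larger addition weighs most on libraries with few counts. At 46 days these were more often Tesa-inj, with a median of 2912 ERVK counts against 8018 in Vehicle-inj. The IAPEz-int pair at 24 h ran from -0.50 to 0.18 with each library left out. Precision is limited by the ERVK counts, 633 in KG8-02, and at 24 h in rows under 100 counts.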
